A study of Mus musculus with 15 samples.

Results

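Mitosis and cytokinesis genes were followed in cultured mouse neural stem cells that stopped receiving growth factors. The 45 genes were taken from a fixed list and found on the array by gene symbol, with the probe set of the highest mean level standing for each gene. Of these, 42 were measured, among 12393 genes on the array with a symbol of their own. All 42 lay above the level filter and were tested among 7909 genes. Cyclin B1 (Ccnb1), the passenger subunit borealin (Cdca8) and separase (Espl1) had no probe set named here and are not analysed.

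Cells came from the subventricular zone of 6-month-old female C57Bl6/J mice, a niche of the adult brain that holds neural stem cells. They were grown as neurospheres for 5 to 7 passages and measured in 3 groups of 5 samples, each on an Affymetrix mouse array with 22690 probe sets. Undifferentiated cells were harvested with epidermal and basic fibroblast growth factor in the medium. The other groups were harvested at 12 h and 24 h on poly-D-lysine, with 5% fetal calf serum and no growth factors. Loss of growth factors, serum and the coated surface therefore cannot be told apart. The labels do not say which samples came from separate cultures or animals, so p-values measure only how these samples vary, and that variation may be technical.

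During mitosis the cyclin-dependent kinase Cdk1, with its B-type and A-type cyclins, drives chromosome condensation and assembly of the spindle. Kinetochores tie each chromosome to spindle microtubules, and the spindle assembly checkpoint holds back the anaphase-promoting complex until every chromosome is attached. Kinesins, the Aurora B passenger complex and the central spindle then carry the cell through chromosome separation and cytokinesis. Transcripts of most of these proteins accumulate late in the cell cycle, so in the neural stem cell niche they mark dividing progenitors and are scarce in quiescent or differentiated cells.

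Several facts on the arrays bear on the values below. The array code in the sample title differed from the code of the array file for 13 of 15 samples, and 8 samples would change group under the file codes; groups were taken from the titles. With groups from the file codes 0 of the 42 genes passed at either time, as 0% of all tested genes did. The medians of the 42 genes were then -0.43 at 12 h and -0.59 at 24 h. Title codes have 3 endings, called sets A, B and C here in the numerical order of the ending, and each set holds arrays of every group. Undifferentiated, 12 h and 24 h arrays number 2, 2 and 1 in set A, 2 of each in set B, and 1, 1 and 2 in set C. The labels do not say what the ending stands for. Codes also fall into 6 runs of consecutive numbers. The 12 h replicates 3 and 4 were the closest pair of arrays, with an SD of their differences of 0.150 on the log2 scale against 0.277 for the next pair. Array medians ran from 0.287 to 0.453 on the log10 scale. The ratio of beta-actin probe sets at the 3' and 5' ends, which reports on RNA and labelling quality, was 1.95 ± 0.238 in undifferentiated, 2.36 ± 0.148 in 12 h and 2.78 ± 0.365 in 24 h arrays (SD, n = 5 each). All 9 measured neural stem cell markers lay above the level filter, and 0 of 8 microglial and 0 of 8 endothelial markers did. Of 6 astrocyte markers all lay above it, with summed linear levels of 462 to 939 in undifferentiated, 789 to 2070 in 12 h and 1188 to 2860 in 24 h arrays. Of 5 oligodendrocyte markers 4 did, with summed levels of 120 to 260, 130 to 1520 and 446 to 2098. Pericyte, ependymal and neuronal markers above the filter numbered 2 of 8, 2 of 2 and 4 of 6. Of the neural stem cell markers 2 fell at 24 h, Nes with a log2 change of -2.05 ± 0.37 and Egfr with -1.08 ± 0.24, and Sox2, Msi1 and Prom1 rose. At that time 5 astrocyte, 4 oligodendrocyte, 2 ependymal, 2 neuronal and 1 pericyte marker rose, and the part of these cell types in the changes below was not tested.

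Nearly all of the 42 genes were lower after growth factors were removed. At 24 h 41 of the 42 genes fell, where 19.4% of all tested genes did, and 0 rose, where 12.7% did. Their median log2 change was -1.74, a 3.34-fold decrease, against -0.06 over all tested genes, and 39 genes fell at least 2-fold. Cdk1, Plk1 and Aurkb fell the furthest among the kinases, with log2 changes of -2.27 ± 0.46, -2.22 ± 0.47 and -2.10 ± 0.41 (SE, n = 5 a group; limma adjusted p = 0.00227, 0.00284 and 0.00174). The exception was Pttg1, securin, with a change of -0.30 ± 0.24 (adjusted p = 0.357). Over all tested genes 1533 fell and 1003 rose, against 1302 and 1590 after quantile normalisation, which left the count of 41 mitosis genes as it was. In 35 genes every 24 h array lay below every undifferentiated array, where 16% of tested genes showed such a gap. The other 7 were Pttg1, Kif4, Bub1b, Cenpe, Ect2, Smc4 and Ncapd2. In a bulk sample fewer dividing cells and less RNA per cell cannot be told apart.

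Lower levels were also seen at 12 h. At that time 16 of the 42 genes fell, against 4.56% of all tested genes, and 0 rose, against 3.3%. The median log2 change was -1.24, a 2.36-fold decrease, against 0.004 over all tested genes. An unadjusted p under 0.05 with a lower level was reached by 40 genes, all but Pttg1 and Cenpe, where 13.9% of all tested genes reached it. In 28 genes every 12 h array lay below every undifferentiated array, where 4.74% of tested genes did. The 16 that fell were Cdk1, Aurka, Aurkb, Birc5, Incenp, Kif20a, Mad2l1, Cdca3, Cenpa, Ndc80, Nuf2, Spag5, Prc1, Smc2, Ncaph and Top2a, with limma adjusted p from 0.0161 for Smc2 to 0.0494 for Prc1. How many passed at 12 h rested on single arrays, although the median change stayed between -1.40 and -0.997 whichever array was left out. For those fits the share of all tested genes that passed was not computed. The count among the 42 genes was 5, 8, 2 and 2 without undifferentiated replicate 2, 3, 4 or 5, and 4, 2 and 1 without 12 h replicate 1, 2 or 5. It was 28 without 12 h replicate 3, 25 without replicate 4 and 40 without both, where 14.8% of all genes were lower. With the code set as a block 41 of the 42 genes fell at 12 h, where 10.7% of all genes did.

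**Figure D1:**
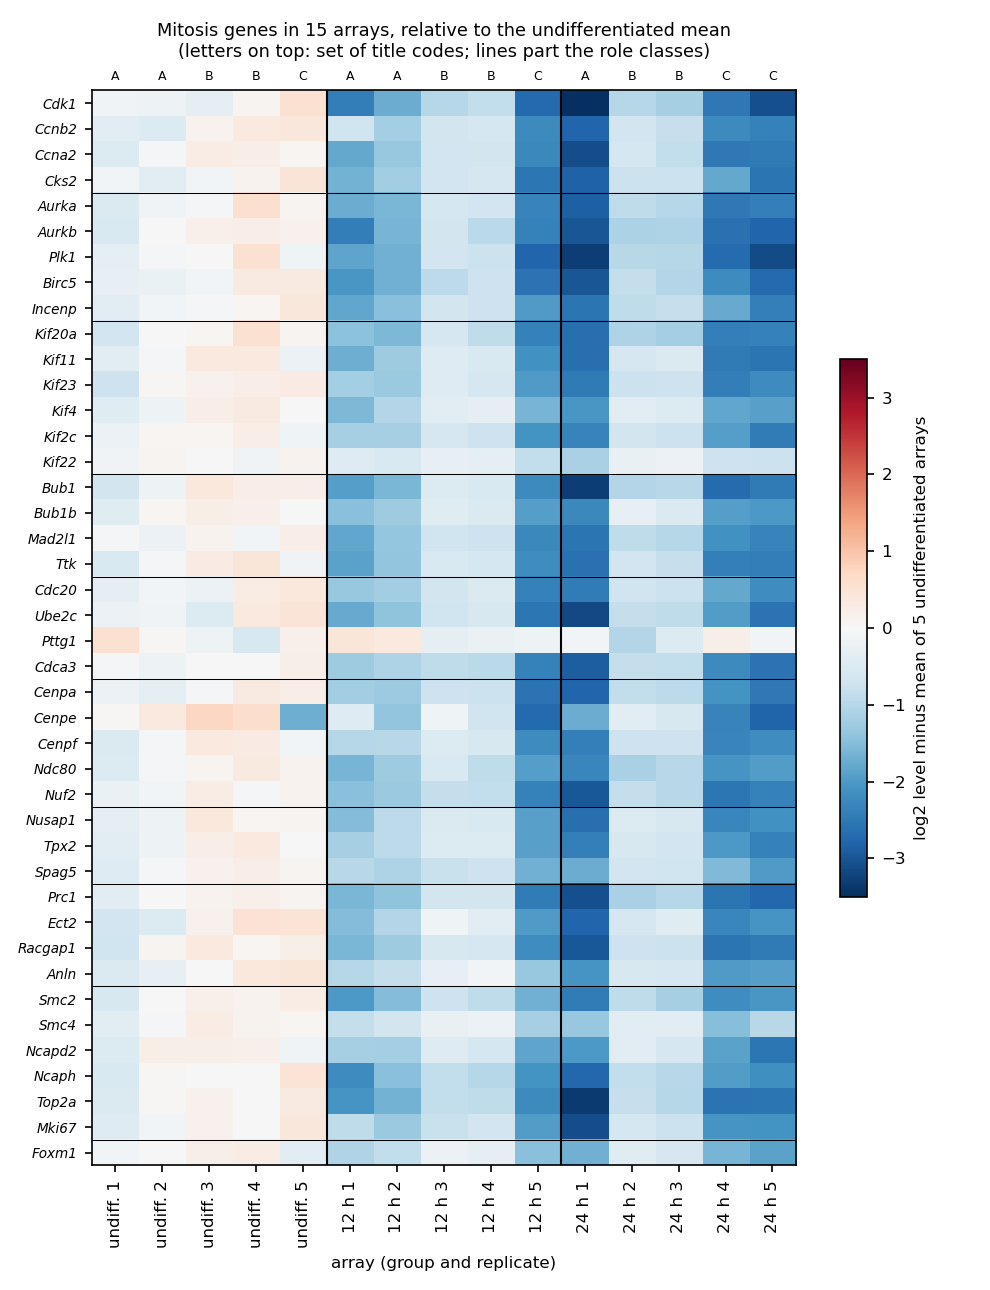
Log2 level of each of the 42 genes in each of 15 arrays, minus the mean of the 5 undifferentiated arrays; blue is lower and red higher, and the letter above a column is the set of the array's title code. All rows but Pttg1 turn blue at 12 h and 24 h, in most rows palest in the arrays of set B.

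Between 12 h and 24 h 0 of the 42 genes passed the test (limma, all 15 arrays), where 0.354% of tested genes fell. Only Anln, the cytokinetic scaffold anillin, had an unadjusted p under 0.05 (log2 change -0.71 ± 0.33, limma adjusted p = 0.322). Of all tested genes 10.4% were lower at that threshold, a larger share than among the 42. All 42 changes were negative, with a median of -0.51 against -0.06 over all tested genes. The median was -0.085 without 12 h replicates 3 and 4, and -0.15 with groups from the file codes. The mean log2 level of the 42 genes was 4.46, 4.73, 4.93, 5.02 and 4.94 in undifferentiated replicates 1 to 5. It was 3.38, 3.59, 4.24, 4.19 and 2.75 at 12 h, and 2.29, 4.08, 4.03, 2.73 and 2.57 at 24 h. The 12 h and 24 h arrays lay below all undifferentiated arrays, overlapped each other widely, and spread more (SD 0.615 and 0.852, against 0.228).

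In both later groups levels differed by code set. The arrays of set B, 12 h replicates 3 and 4 and 24 h replicates 2 and 3, held the highest mean levels of their groups. Within set B the median change of the 42 genes was -0.81 at 12 h and -0.93 at 24 h. Within set C, which has 1 undifferentiated and 1 12 h array, it was -2.37 and -2.47. Within set A it was -1.15 at 12 h and -2.33 at 24 h, the latter from 1 array. From 12 h to 24 h the medians were -1.19 in set A, -0.15 in set B and -0.10 in set C, and 24 h replicate 1 is the only 24 h array of set A. Without that array the median over all sets was -0.29. Along runs of consecutive codes 41 genes were lower in all 5 runs that hold an undifferentiated and a 12 h array, and in all 4 that hold an undifferentiated and a 24 h array, with Pttg1 the exception both times. Of all tested genes 13.2% and 31.7% were lower in every such run. From 12 h to 24 h 22 of the 42 genes were lower in all 4 runs, where 25.2% of all tested genes were.

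A test of whether the change differs among the 3 sets, added after the values were seen, passed for 8 of the 42 genes at 12 h (limma F-test, 6 residual degrees of freedom), where 1.81% of all tested genes passed. It was prompted by the set differences above. The undifferentiated and 12 h arrays of set C, 1 of each, add nothing to the estimate of spread. That estimate comes from groups with 2 arrays in a set, among them the 24 h arrays of set C. The genes were Cdk1, Ccnb2, Cks2, Cdc20, Cdca3, Cenpa, Prc1 and Ect2, with adjusted p from 0.0228 for Ccnb2 to 0.0493 for Ect2. The change of Cdk1 at 12 h was -1.92 in set A, -0.82 in set B and -3.23 in set C. At 24 h 0 genes passed among the 42, as among all tested genes (0%). An unadjusted p under 0.05 in this F-test was reached by 39 of the 42, where 6.71% of all genes reached it. In set B the decrease was the smallest for 36 of the 42 genes at 12 h and 40 at 24 h. Without the 4 arrays of set C, 0 of the 42 genes passed at 12 h (29 lower at an unadjusted p under 0.05, where 9.89% of all genes were), where 0.443% of genes fell, and 17 fell at 24 h, where 7.74% did. The actin ratio moved with time as well. With it as a covariate 0 of the 42 genes passed at 12 h or 24 h, where 0.228% and 0.0632% of all tested genes fell. Of the 42 genes 34 and 37 were lower at an unadjusted p under 0.05, where 7.94% and 9.58% of all genes were. The medians of the 42 genes were -1.32 and -1.87. The part of the actin ratio in the changes was otherwise not tested.

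**Figure D2:**
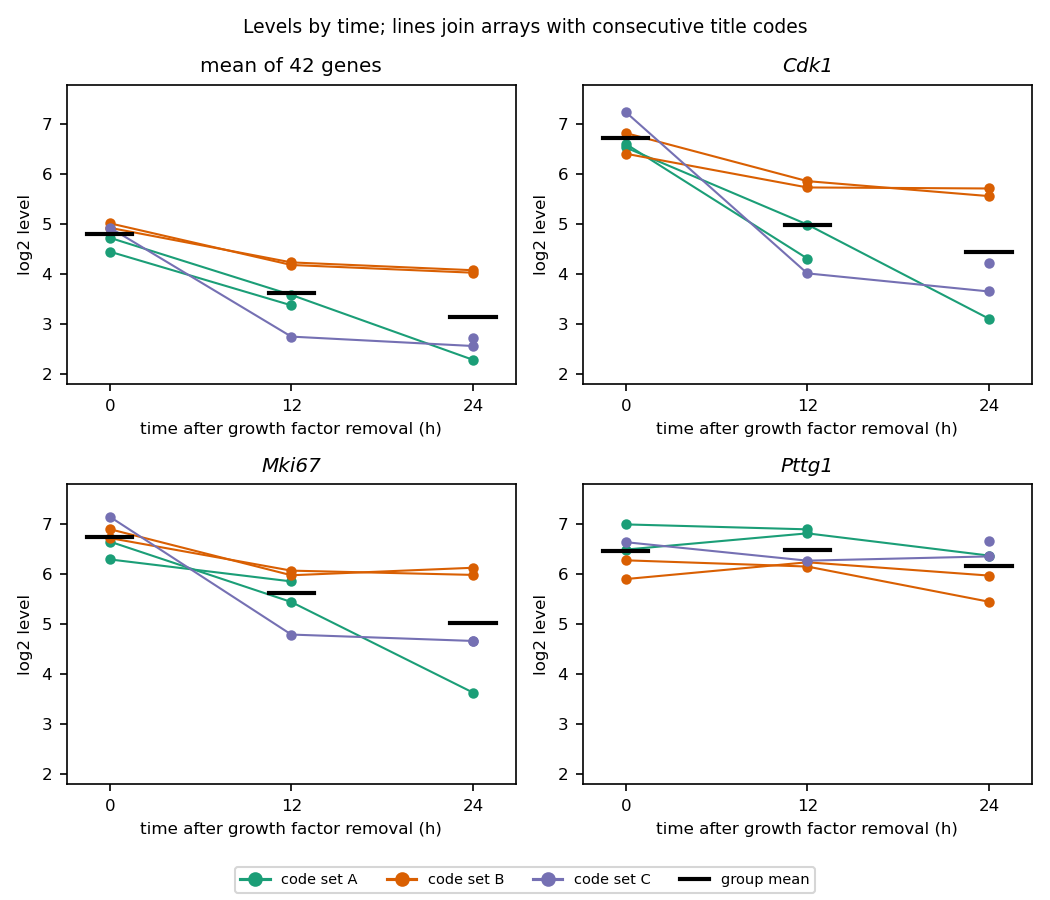
Log2 level against hours after growth factors were removed, for the mean of the 42 genes, Cdk1, Mki67 and Pttg1; points are arrays, coloured by code set, lines join arrays of a run of consecutive codes, and black bars are means of 5 arrays. The mean of the 42 genes was 4.82 ± 0.228, 3.63 ± 0.615 and 3.14 ± 0.852 (SD, n = 5) at 0, 12 and 24 h, while Pttg1 overlapped at all times.

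Promoters were examined because 41 of the 42 genes fell. Late cell cycle genes commonly carry a CHR element, TTTGAA, which the MuvB complex binds with repressive pocket proteins in resting cells and with B-Myb and Foxm1 in dividing cells, and CCAAT boxes, which NF-Y binds. RefSeq promoter windows of 300 bases on GRCm38.p6, from 250 before to 50 after the start site, matched 38 of the 45 listed genes (40 windows), and Smc4, Aurkb, Ccna2, Foxm1, Kif20a, Incenp and Tpx2 were not matched. On either strand TTTGAA was found in 75.0% of the 40 windows, against 17.9% of all 32851 windows and 11.6% of those of tested genes. CCAAT was found in 77.5%, against 37.4% and 37.9%. In the 82 windows of the other tested division genes described at the end, TTTGAA was found in 30.5%, CCAAT in 54.9% and the E2F-type motif TTCCCGC in 19.5%. Of the 38 matched genes of the list, 25 (65.8%) held both TTTGAA and CCAAT. Both were held by 7.97% of all genes with windows, 5.59% of tested genes and 22.5% of the other tested division genes. Neither motif stood in the windows of Birc5, Mad2l1, Ncaph, Nuf2, Nusap1 and Pttg1. The matches of TTTGAA and CCAAT overlapped at 1 place. The E2F-type motif TTGGCGC was in 17.5% of windows, against 2.45% of all and 4.66% of those of tested genes, and TTCCCGC in 0.0%, against 4.6% and 8.51%. Of 39 TTTGAA matches, 28 began between bases -50 and 45 of the start site, a span chosen after positions were seen (71.8%, against 25.3% of the matches in all windows). Windows of Ect2 and of Prc1 overlap and count some sites repeatedly: the distinct sites number 36, of which 26 lie in that span. The median change at 24 h was -1.73 in the 26 tested genes with TTTGAA and -1.74 in the 9 without. Only the exact letters TTTGAA were searched, so these 9 are not shown to lack a CHR element. A match is a run of letters and not a shown binding site.

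The windows printed here are those of Cdk1 and Plk1, which fell the furthest, of the cyclin Ccnb2, the anaphase activator Cdc20 and the motor Kif11, and of Pttg1 and Mad2l1, which hold neither motif and differ in their change. Capitals mark TTTGAA and CCAAT on either strand, TTCAAA and ATTGG being the same motifs on the other strand. The Cdk1 window is chr10:69352863-69353162 (minus strand), with TTTGAA beginning at bases -71 and -15. That of Ccnb2 is chr9:70421505-70421804 (minus), with TTTGAA at -167 and 5, and that of Cdc20 chr4:118437294-118437593 (minus), with TTTGAA at -18. Those of Kif11 and Plk1 are chr19:37376132-37376431 (plus) and chr7:122159185-122159484 (plus), with TTTGAA at -19 and 31. Pttg1 lies at chr11:43425932-43426231 (minus) and Mad2l1 at chr6:66534971-66535270 (plus). Each line runs from the upstream end towards the gene.
Cdk1: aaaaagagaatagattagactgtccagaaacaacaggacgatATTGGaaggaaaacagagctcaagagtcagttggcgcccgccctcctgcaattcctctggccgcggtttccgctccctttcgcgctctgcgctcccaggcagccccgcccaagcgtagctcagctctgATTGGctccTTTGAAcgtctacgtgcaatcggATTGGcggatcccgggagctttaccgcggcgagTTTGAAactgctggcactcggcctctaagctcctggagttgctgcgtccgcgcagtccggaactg
Ccnb2: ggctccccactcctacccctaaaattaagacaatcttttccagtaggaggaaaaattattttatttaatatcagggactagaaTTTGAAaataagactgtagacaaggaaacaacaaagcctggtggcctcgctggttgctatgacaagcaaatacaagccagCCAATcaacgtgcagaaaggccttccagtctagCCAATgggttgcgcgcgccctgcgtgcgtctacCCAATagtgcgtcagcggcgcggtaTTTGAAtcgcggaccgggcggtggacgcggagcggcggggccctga
Cdc20: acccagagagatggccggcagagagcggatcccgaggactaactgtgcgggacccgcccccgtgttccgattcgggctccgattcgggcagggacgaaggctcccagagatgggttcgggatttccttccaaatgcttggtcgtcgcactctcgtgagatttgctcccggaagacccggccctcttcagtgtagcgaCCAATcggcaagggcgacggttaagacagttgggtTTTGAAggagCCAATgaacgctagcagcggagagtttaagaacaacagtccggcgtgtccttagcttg
Kif11: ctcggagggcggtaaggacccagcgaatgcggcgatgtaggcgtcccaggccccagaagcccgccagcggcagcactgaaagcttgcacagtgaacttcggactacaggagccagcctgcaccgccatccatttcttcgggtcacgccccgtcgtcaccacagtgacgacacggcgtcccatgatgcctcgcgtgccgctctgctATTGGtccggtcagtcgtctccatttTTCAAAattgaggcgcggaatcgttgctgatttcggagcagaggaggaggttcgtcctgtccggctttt
Plk1: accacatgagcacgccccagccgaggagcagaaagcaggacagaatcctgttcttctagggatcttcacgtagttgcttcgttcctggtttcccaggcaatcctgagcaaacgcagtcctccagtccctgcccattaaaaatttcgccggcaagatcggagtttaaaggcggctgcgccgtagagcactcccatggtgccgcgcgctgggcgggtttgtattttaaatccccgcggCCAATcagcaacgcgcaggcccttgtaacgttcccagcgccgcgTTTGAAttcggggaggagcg
Pttg1: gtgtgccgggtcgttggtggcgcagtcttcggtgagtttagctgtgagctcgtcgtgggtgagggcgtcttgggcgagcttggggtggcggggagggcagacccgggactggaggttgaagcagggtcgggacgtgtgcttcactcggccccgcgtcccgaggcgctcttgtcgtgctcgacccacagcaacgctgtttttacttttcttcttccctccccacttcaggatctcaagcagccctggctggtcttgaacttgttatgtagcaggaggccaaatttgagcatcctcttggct
Mad2l1: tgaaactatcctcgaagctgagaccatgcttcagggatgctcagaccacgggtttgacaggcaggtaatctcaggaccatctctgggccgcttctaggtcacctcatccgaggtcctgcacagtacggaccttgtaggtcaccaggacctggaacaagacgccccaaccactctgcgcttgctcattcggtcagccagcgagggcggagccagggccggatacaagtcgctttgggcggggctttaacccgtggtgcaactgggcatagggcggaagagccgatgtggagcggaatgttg

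In the cyclin-CDK class (Cdk1, Ccna2, Ccnb2 and Cks2) all 4 measured genes fell at 24 h, with a median log2 change of -1.84. Cdk1 also fell at 12 h. The log2 level of Cdk1, the kinase that starts mitosis, was 6.61, 6.54, 6.42, 6.83 and 7.25 in undifferentiated replicates 1 to 5, 4.32, 5.00, 5.74, 5.87 and 4.02 at 12 h, and 3.11, 5.72, 5.57, 4.23 and 3.66 at 24 h. Every 12 h and 24 h array was below every undifferentiated array, and the arrays of set B lay highest. Cdk1 was 3.34-fold lower at 12 h (log2 change -1.74 ± 0.46, adjusted p = 0.0329) and 4.83-fold lower at 24 h. Cks2, a small subunit that docks Cdk1 on its substrates, had log2 levels of 6.33, 6.03, 6.31, 6.53 and 6.85, then 4.74, 5.18, 5.73, 5.83 and 3.89, then 3.58, 5.65, 5.65, 4.62 and 3.85. Its undifferentiated levels also stood clear of both later groups. Cks2 changed by -1.34 ± 0.41 at 12 h (adjusted p = 0.0577) and fell by 1.74 ± 0.41 at 24 h (adjusted p = 0.00532). The cyclins Ccna2 and Ccnb2 had log2 changes of -1.34 and -1.07 at 12 h, which did not pass, and fell at 24 h, with changes of -1.91 and -1.77.

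The Aurora and polo kinases with the passenger complex fell at 24 h in all 5 genes, with a median log2 change of -1.96, and in 4 at 12 h. Its median was the lowest of the role classes at both times, although differences between classes were not tested. Birc5, survivin, which targets Aurora B to centromeres, had log2 levels of 5.01, 5.06, 5.21, 5.61 and 5.60 in undifferentiated cells, 3.27, 3.62, 4.39, 4.58 and 2.70 at 12 h, and 2.30, 4.46, 4.26, 3.10 and 2.59 at 24 h. Incenp, the scaffold of the passenger complex, lay at 4.79, 5.07, 5.12, 5.23 and 5.56, then 3.33, 3.69, 4.52, 4.42 and 3.18, then 2.61, 4.27, 4.36, 3.38 and 2.75. Neither gene overlapped between undifferentiated and later arrays. Birc5 fell at both times, with log2 changes of -1.59 ± 0.41 and -1.96 ± 0.41 (adjusted p = 0.0297 and 0.00271). Incenp did so with changes of -1.32 ± 0.34 and -1.68 ± 0.34 (adjusted p = 0.0297 and 0.00229). Aurka, which matures centrosomes, fell at both times, with changes of -1.39 and -1.93. Plk1, the polo kinase of mitotic entry and centrosomes, changed by -1.55 ± 0.47 at 12 h without passing (adjusted p = 0.0546).

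All 6 mitotic kinesins fell at 24 h, with a median log2 change of -1.67, and Kif20a did at 12 h. Kif11, the motor that pushes spindle poles apart, had log2 levels of 4.40, 4.74, 5.16, 5.14 and 4.60 in undifferentiated cells, 3.10, 3.57, 4.37, 4.29 and 2.69 at 12 h, and 2.16, 4.23, 4.30, 2.35 and 2.24 at 24 h. Undifferentiated arrays did not overlap with later ones, although 12 h replicate 3 lay just below undifferentiated replicate 1. Kif11 changed by -1.21 ± 0.44 at 12 h (adjusted p = 0.0952) and fell by 1.75 ± 0.44 at 24 h (adjusted p = 0.00705). Kif22, a chromosome-arm motor, had the smallest called change of the 41 genes, -0.62 ± 0.17 at 24 h (adjusted p = 0.0116). Its levels were 4.01, 4.23, 4.11, 4.01 and 4.25, then 3.66, 3.58, 3.85, 3.77 and 3.25, then 2.97, 3.85, 3.91, 3.40 and 3.37. Undifferentiated arrays did not overlap with later ones, which overlapped each other. The 2 other Kif22 probe sets, of lower level, changed by -1.52 and -1.32 at 24 h, so the size of its change depends on the probe set. The central spindle motors Kif20a, Kif23 and Kif4 and the depolymerase Kif2c had 24 h changes of -1.93, -1.71, -1.32 and -1.62.

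The 4 checkpoint genes fell at 24 h, with a median log2 change of -1.78, and Mad2l1 fell at 12 h. Mad2l1, which inhibits the anaphase-promoting complex at unattached kinetochores, had log2 levels of 4.91, 4.77, 5.10, 4.87 and 5.21 in undifferentiated cells, 3.17, 3.63, 4.26, 4.24 and 2.72 at 12 h, and 2.41, 4.07, 3.97, 2.86 and 2.64 at 24 h. Bub1, the kinase that builds the checkpoint platform, lay at 3.94, 4.39, 4.94, 4.80 and 4.81, then 2.65, 2.98, 4.09, 4.03 and 2.34, then 1.28, 3.55, 3.62, 1.89 and 2.10. Mad2l1 was lower in every later array, whereas 12 h replicates 3 and 4 of Bub1 overlapped undifferentiated replicate 1. Mad2l1 changed by -1.37 ± 0.34 at 12 h and -1.78 ± 0.34 at 24 h (adjusted p = 0.0249 and 0.00146). Bub1 changed by -1.36 ± 0.44 at 12 h (adjusted p = 0.0674) and fell by 2.09 ± 0.44 at 24 h (adjusted p = 0.0028). Bub1b and the kinase Ttk fell at 24 h, with changes of -1.40 and -1.78. As noted with the sequences, the Mad2l1 window holds neither motif although its transcript fell at both times.

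Of 4 genes of anaphase onset and protein turnover, 3 fell at 24 h and Cdca3 fell at 12 h. Ube2c, the ubiquitin-conjugating enzyme of the anaphase-promoting complex, had log2 levels of 6.31, 6.39, 6.04, 6.85 and 6.96 in undifferentiated cells, 4.74, 5.10, 5.80, 5.96 and 3.98 at 12 h, and 3.34, 5.67, 5.62, 4.56 and 3.92 at 24 h. All later arrays were below the undifferentiated ones. Ube2c changed by -1.39 ± 0.44 at 12 h (adjusted p = 0.0597) and fell by 1.89 ± 0.44 at 24 h (adjusted p = 0.00448). Cdc20, which activates the complex, and Cdca3, an adaptor for protein turnover at mitotic entry, fell at 24 h, with changes of -1.57 and -1.89.

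Pttg1, the inhibitor of separase, stood apart from the rest. Its log2 levels were 7.00, 6.49, 6.28, 5.90 and 6.64 in undifferentiated cells, 6.90, 6.82, 6.15, 6.24 and 6.27 at 12 h, and 6.37, 5.45, 5.97, 6.66 and 6.36 at 24 h. The 3 groups overlapped throughout. Its change was 0.01 ± 0.24 at 12 h (adjusted p = 0.981) and -0.30 ± 0.24 at 24 h, which does not show that it was unchanged. A second Pttg1 probe set above the filter changed by -0.21 and -0.49, the smallest decrease at 24 h among the 22 other probe sets above it, and another, below the filter, by 0.24 and 0.11. All 22 of those other probe sets, for 19 of the 42 genes, were lower at both times, with medians of -0.99 and -1.43.

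All 5 kinetochore and centromere genes fell at 24 h, with a median log2 change of -1.68, and Cenpa, Ndc80 and Nuf2 fell at 12 h. Cenpa, the histone that marks centromeres, had log2 levels of 5.25, 5.12, 5.41, 5.77 and 5.68 in undifferentiated cells, 4.24, 4.16, 4.72, 4.69 and 2.86 at 12 h, and 2.66, 4.58, 4.53, 3.36 and 2.95 at 24 h. Cenpf, a large protein of the outer kinetochore, lay at 4.66, 5.14, 5.53, 5.47 and 5.07, then 4.18, 4.20, 4.69, 4.62 and 2.98, then 2.79, 4.45, 4.46, 2.87 and 3.00. The highest Cenpf array at 12 h passed the lowest undifferentiated array, and the other comparisons of these 2 genes with undifferentiated cells showed no overlap. Cenpa changed by -1.31 ± 0.39 at 12 h and -1.83 ± 0.39 at 24 h (adjusted p = 0.0477 and 0.00275). Cenpf changed by -1.04 ± 0.37 at 12 h (adjusted p = 0.0912) and fell by 1.66 ± 0.37 at 24 h (adjusted p = 0.0039). Ndc80 and Nuf2, partners in the complex that grips microtubules, changed by -1.24 and -1.36 at 12 h and by -1.68 and -1.93 at 24 h. Cenpe, a kinetochore motor, had the widest error, with a change of -1.56 ± 0.56 at 24 h (adjusted p = 0.0444). Its undifferentiated replicate 5 lay at 0.65 against 2.39 to 3.08 in the others, and its call at 24 h was lost without undifferentiated replicate 1, 2, 3 or 4, 12 h replicate 2, or 24 h replicate 1, 4 or 5.

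The spindle assembly factors Nusap1, Tpx2 and Spag5 fell at 24 h, with log2 changes of -1.62, -1.60 and -1.32, and Spag5 fell by 1.05 at 12 h. Nusap1, which bundles microtubules near chromosomes, had log2 levels of 4.63, 4.80, 5.35, 5.05 and 5.07 in undifferentiated cells, 3.47, 4.06, 4.48, 4.46 and 3.07 at 12 h, and 2.35, 4.50, 4.41, 2.69 and 2.86 at 24 h. Tpx2, the activator of Aurora A on the spindle, lay at 3.93, 4.15, 4.58, 4.67 and 4.36, then 3.17, 3.42, 3.85, 3.86 and 2.43, then 1.95, 3.77, 3.67, 2.33 and 1.96. Both genes were lower in all later arrays, by narrow margins in those of set B. Their 12 h changes of -1.07 and -0.99 did not pass.

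The 4 cytokinesis genes fell at 24 h, with a median log2 change of -1.76, and Prc1 fell at 12 h. Prc1, which cross-links the central spindle, had log2 levels of 4.78, 5.18, 5.30, 5.35 and 5.26 in undifferentiated cells, 3.58, 3.76, 4.54, 4.52 and 2.74 at 12 h, and 2.09, 4.04, 4.18, 2.62 and 2.44 at 24 h. Racgap1, a subunit of the centralspindlin complex, lay at 4.26, 5.05, 5.29, 5.03 and 5.15, then 3.35, 3.71, 4.39, 4.38 and 2.78, then 1.99, 4.23, 4.21, 2.41 and 2.50. For Prc1 undifferentiated arrays were separate from those of both later times, while the low undifferentiated replicate 1 of Racgap1 lay among the 12 h arrays. Prc1 changed by -1.34 ± 0.40 at 12 h and -2.10 ± 0.40 at 24 h (adjusted p = 0.0494 and 0.00147), the latter a 4.29-fold decrease. Racgap1 changed by -1.24 ± 0.43 at 12 h (adjusted p = 0.0821) and fell by 1.89 ± 0.43 at 24 h (adjusted p = 0.00412). Ect2, which helps place the cleavage furrow, and Anln had changes of -1.01 and -0.71 at 12 h, and fell at 24 h, with changes of -1.63 and -1.43.

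All 6 genes of condensin and chromosome structure fell at 24 h, with a median log2 change of -1.73, and Smc2, Ncaph and Top2a fell at 12 h. Mki67, the Ki-67 surface coat of mitotic chromosomes and a common marker of dividing cells, had log2 levels of 6.30, 6.65, 6.90, 6.72 and 7.15 in undifferentiated cells, 5.86, 5.44, 5.98, 6.07 and 4.79 at 12 h, and 3.63, 6.13, 5.99, 4.67 and 4.66 at 24 h. Smc4, a core condensin ATPase, lay at 5.59, 5.96, 6.26, 6.13 and 6.05, then 5.16, 5.35, 5.75, 5.78 and 4.85, then 4.67, 5.61, 5.64, 4.50 and 5.02. Mki67 did not overlap between undifferentiated and later arrays, and Smc4 overlapped through the arrays of set B. Mki67 changed by -1.12 ± 0.39 at 12 h (adjusted p = 0.0832) and fell by 1.73 ± 0.39 at 24 h (adjusted p = 0.00393), and within set B its change was -0.79 and -0.76. Smc4 had the smallest change of the class, -0.91 ± 0.24 at 24 h (adjusted p = 0.00847), and its 2 other probe sets changed by -1.33 and -1.40. Its partner Smc2 changed by -1.37 and -1.74 at 12 h and 24 h, the condensin subunit Ncaph by -1.52 and -1.74, and Top2a, the topoisomerase that untangles sister chromatids, by -1.54 and -2.06. Ncapd2, another condensin subunit, fell by 1.48 at 24 h.

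Foxm1, the forkhead factor that switches on many of these genes, had log2 levels of 1.89, 2.01, 2.19, 2.23 and 1.60 in undifferentiated cells, 0.94, 1.13, 1.78, 1.68 and 0.52 at 12 h, and 0.31, 1.56, 1.41, 0.37 and 0.12 at 24 h. The 24 h arrays lay below all undifferentiated arrays, and 12 h replicates 3 and 4 did not. Foxm1 changed by -0.78 ± 0.29 at 12 h (adjusted p = 0.103) and fell by 1.23 ± 0.29 at 24 h (adjusted p = 0.00522). Several 24 h values lay below the filter level of 0.51 on the log2 scale.

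**Figure D3:**
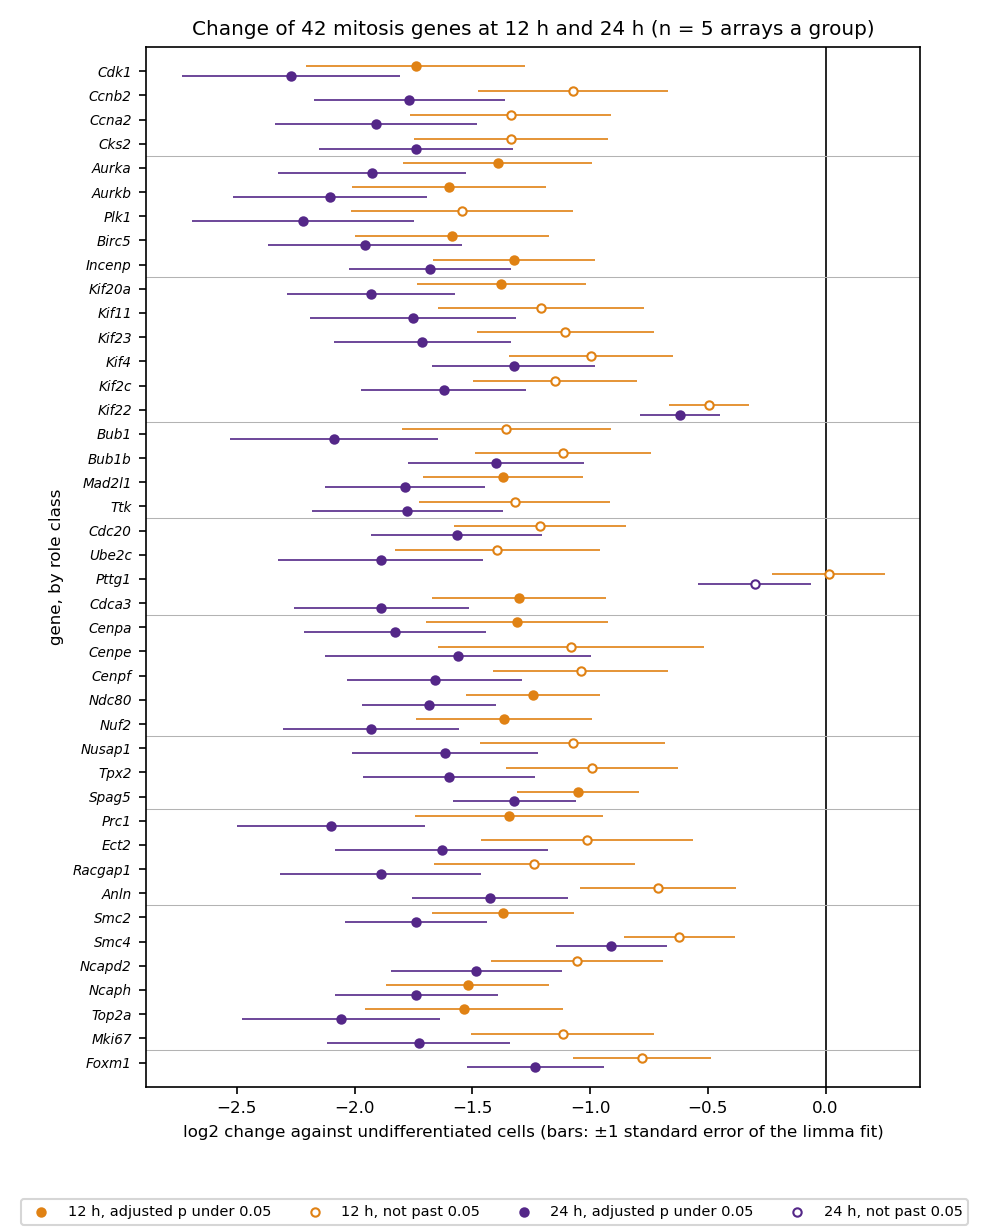
Log2 change of each of the 42 genes at 12 h and 24 h against undifferentiated cells, by role class; points are limma estimates from 5 arrays a group, bars are ±1 standard error, and filled points have an adjusted p under 0.05. Filled points number 16 at 12 h and 41 at 24 h, and Pttg1 alone sits near 0.

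Set side by side, the medians of the role classes at 24 h ran from -1.96 for the Aurora and polo class through -1.84 for cyclin-CDK, -1.78 for the checkpoint, -1.76 for cytokinesis, -1.73 for both condensin and anaphase genes, -1.68 for kinetochores and -1.67 for kinesins to -1.60 for spindle assembly. At 12 h they ran from -1.55 for the Aurora and polo class to -1.05 for spindle assembly. Foxm1, the only gene of its class, is left out of these ranges, with changes of -0.78 at 12 h and -1.23 at 24 h. The differences between these medians were not tested.

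The genes also varied together from array to array within a group. With group means taken out, the median correlation over the 861 pairs among the 42 genes was 0.923 across 15 arrays, against 0.0724 over all pairs of tested genes. With the means of the code sets taken out too, it was 0.858 against 0.0498. Pttg1 had a median correlation of -0.63 with the others and Cenpe 0.64, and the remaining 40 genes had medians from 0.88 to 0.958. The arrays of a set share whatever that code stands for, so these values describe 15 points that are not all independent. Of all tested genes 1.14% had a within-group correlation over 0.9 with the mean of the 42 genes: 40 of the 42, 26 genes of the other division lists described next, and 24 others. The others with the highest values were Shcbp1, Stil, Dbf4, Pimreg and Depdc1a, at 0.988, 0.971, 0.971, 0.968 and 0.959. Each of the 42 genes is itself part of the mean it was compared with, and the other genes are not.

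Other genes of cell division, from 7 further lists of 127 genes, were measured for 92 and tested for 87. At 12 h 24 of the 87 fell and 0 rose, where 4.56% and 3.3% of all tested genes did, and at 24 h 49 fell and 6 rose, where 19.4% and 12.7% did. Among 13 entry kinases and phosphatases 12 fell at 24 h, including Plk4, the kinase of centriole duplication (log2 change -2.20 ± 0.32), Melk (-2.03 ± 0.42), Pbk (-1.98 ± 0.35) and Cks1b (-1.71 ± 0.27). The phosphatase Cdc25b had a change of -0.57 ± 0.29 (adjusted p = 0.143). Among 23 other kinetochore and checkpoint genes 17 fell, including Trip13 (-2.15 ± 0.34), Spc25 (-1.97 ± 0.38) and, by a smaller step, Bub3 (-0.58 ± 0.11). Zwint changed by -0.11 ± 0.14 (adjusted p = 0.562), and Mad2l2, which also acts in DNA repair, rose by 0.72 ± 0.26.

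Among 16 other motors and spindle proteins 9 fell and 4 rose at 24 h. Kifc1, a minus-end motor that focuses spindle poles, fell by 1.99 ± 0.29, and Hmmr had a change of -1.74 ± 0.36, also past the threshold. Those that rose were the plus-end proteins Mapre1 (0.56 ± 0.19) and Clasp2 (0.89 ± 0.23), Ckap5 (0.63 ± 0.17) and the ciliary motor Kif3a (0.71 ± 0.22). The tubulin-binding protein Stmn1 changed by 0.04 ± 0.19 (adjusted p = 0.884). Of 3 other condensin subunits Ncapg2 and Ncapg fell, with changes of -1.98 ± 0.46 and -1.59 ± 0.37, and Ncaph2 had a change of -0.30 ± 0.17.

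Cohesin, the ring that holds sister chromatids and also shapes chromatin outside mitosis, had 2 of 10 genes lower and 1 higher at 24 h, with a median of 0.11, so its counts were near the shares over all tested genes. Cdca5, sororin, which protects cohesion until mitosis, and Smc1a fell, with changes of -1.71 ± 0.35 and -0.58 ± 0.14, while the acetyltransferase Esco1 rose by 0.54 ± 0.17. The changes of Stag2 and Rad21 were 0.18 ± 0.11 and 0.43 ± 0.21 and did not pass. The anaphase-promoting complex had 2 of 12 genes lower, Fzr1 (-0.61 ± 0.22) and Anapc1 (-0.42 ± 0.15), and a median of -0.26, again near the share over all tested genes. Anapc5 changed by 0.04 ± 0.15 and Ube2s by -0.63 ± 0.24, neither past the threshold. Among 10 MuvB, B-Myb and E2F regulators 5 fell: Rbl1 (-1.72 ± 0.35), E2f8 (-1.70 ± 0.30), E2f1 (-1.11 ± 0.24), Mybl2 (-0.95 ± 0.22) and Lin9 (-0.78 ± 0.21). Rbbp4 and Tfdp1 changed by 0.21 ± 0.17 and -0.63 ± 0.24 without passing.

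**Figure D4:**
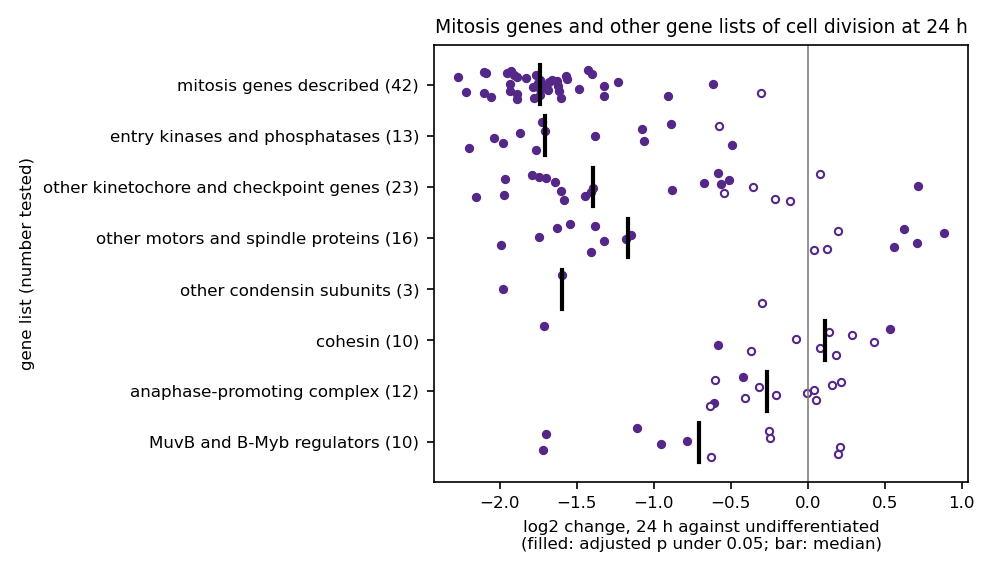
Log2 change at 24 h against undifferentiated cells for the 42 mitosis genes and for the tested genes of 7 other lists of cell division; each point is a gene, filled where the limma adjusted p is under 0.05, and bars are medians. Medians lie at -1.74 for the 42 genes, -1.71 for entry kinases, 0.11 for cohesin and -0.26 for the anaphase-promoting complex.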

How the data were processed

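Total RNA of 15 samples was labelled with biotin and hybridised to 1 array each, per the labels. The deposited values are log10 intensities per probe set, per the authors' value table. The submitters' processing notes name MAS5, with version, scaling and offset not given in the sources used here. Spiked-in controls settled the base of the logarithm: their values rose by 1.06 ± 0.0581 per 10-fold step in concentration (SD, n = 15 arrays). Values were converted to log2 with no further normalisation or pseudocount. Array medians differ, so the deposited values are not quantile normalised.

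Of 22690 probe sets 20380 carry 1 gene symbol, 691 several and 1555 none in the platform annotation, and 20351 were matched by Entrez number. The probe set with the highest mean stood for its gene. Genes whose mean passed the 40th percentile of non-control probe sets (0.51 in log2) entered the test with limma 3.58.1 in R 4.3.3 (lmFit and eBayes with trend), all 15 arrays in 1 fit, with Benjamini-Hochberg adjustment over 7909 genes. A gene fell or rose where the adjusted p was under 0.05. The test was checked on simulated data. The number of arrays limits the precision.

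All genes of the list were named, with values in every array for the 2 of each role class with the highest mean level, whatever their change, and for Cdk1 and Mki67. Of the other division lists, the 2 genes of highest level, the 2 that fell the furthest and those that rose were named by rule, and further ones were named after their values were seen. The genes, the lists and the alternatives were chosen with earlier results of these data known. Alternatives covered code sets and runs as blocks, scaling, filter, probe set choice, variance trend, groups from file codes, the actin ratio, close arrays and leaving out arrays. Promoters are RefSeq windows on GRCm38.p6. No raw array data were used here.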

Additional observations from a re-analysis of the deposited data

Results flagged for a closer look

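Racgap1 in undifferentiated replicate 1 lay at a log2 level of 4.26, below the 5.03 to 5.29 of the other 4 arrays. The gap took 0.750 of the range of the group, above Dixon's 95% value of 0.71 for 5 samples. It was the only one of 60 groups of values examined to pass, and chance alone flags about 1 in 20.

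The decrease at 12 h differed among the 3 code sets for 8 of the 42 genes, where 1.81% of all tested genes passed. This test was added after the set differences were seen. Among these 8 the largest difference between sets C and B was that of Cdk1, whose change in set C was lower than that in set B by a log2 difference of -2.41 (limma F-test adjusted p = 0.0476). Set C has 1 undifferentiated and 1 12 h array.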

How the results depend on the processing

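At 12 h 16 of the 42 mitosis genes fell. A percentage beside a count is the share of all tested genes that fell in that fit, which was not computed where single arrays were left out. The count was 41 with code sets as a block (10.7%), 38 with runs as a fixed block (8.74%) and 38 with runs as a random block (10.4%). With arrays centred on the median it was 28 (5.9%), and 30 with only the 2 groups compared (2.98%). With the 2 close 12 h arrays averaged it was 25 (7.19%), and 40 without both (14.8%). It was 0 with groups from the file codes (0%), with the actin ratio (0.228%) and without set C (0.443%), and ran from 1 to 28 when single arrays were left out. At 24 h, from 41, it was 0 with the file codes (0%), 0 with the actin ratio (0.0632%) and 17 without set C (7.74%). It ran from 40 to 41 there when single arrays were left out. The median changes moved to -0.43 at 12 h and -0.59 at 24 h with the file codes. Leaving out single arrays gave medians from -1.40 to -0.997 at 12 h, -1.97 to -1.52 at 24 h and -0.76 to -0.29 between these times, where it was -0.085 without both close arrays and -0.15 with the file codes.

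Of the other division genes 24 fell at 12 h. This count was 46 with the set block, 44 and 43 with runs as a fixed and a random block, 44 without both close arrays, 2 without set C, 3 with the actin ratio and 0 with the file codes, and from 10 to 38 when single arrays were left out. From 49 at 24 h it was 30 with a 60th percentile filter, which tests fewer genes, 25 without set C, and 0 with the actin ratio or the file codes, and from 46 to 52 when single arrays were left out. The shares of all tested genes in these fits are those given above, and 19.5% at 24 h with the 60th percentile filter. The cause of the other moves was not tested. The 12 h change of Pttg1, 0.013, turned to -0.048 with the file codes and to -0.092, -0.072, -0.033 and -0.126 without 12 h replicate 1 or 2 or undifferentiated replicate 3 or 4, within a range up to 0.147 when single arrays were left out. The labels give no replicate numbers, and the runs and sets of title codes, fitted as blocks above, are what ties arrays across groups.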
